A study of Mus musculus with 35 samples.

Results

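The distal part of mouse chromosome 16 holds the genes of 4 cytokine receptor chains side by side, among them both chains of the type I interferon receptor, Ifnar1 and Ifnar2. Members here were all accessible regions on chromosome 16 from a fixed position to the end of the chromosome (build mm10, GRCm38), after the peaks of 12 lists had been merged. They numbered 1070 of 144771 merged regions (0.739%), and 4176 others lay on the rest of chromosome 16. The choice used position alone. The first member began at 81506270 and the nearest region left out ended at 81469007, each of them called in 1 list, and the last member ended at 98107498. The interval spans 16.6 Mb, contains 152 protein-coding genes and has the start of Ifnar1, at 91485215, 9.99 Mb from its proximal edge.

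ATAC-seq, which maps accessible DNA by the insertion of Tn5 transposase, had been run on 35 libraries of blood stem cells (HSCs) and of progenitor cells (HPCs) from mice on a B6 background. Set 1 followed age, and only the titles of its adult libraries carry a genotype, WT (wild type). Its HSCs came from E16.5 fetuses (3 libraries), from mice of 14 days (P14, 3) and from adults of 8 weeks (5). Its HPCs came from E16.5 fetuses (3), P7 (3), P14 (2), P21 (2) and adults of 8 weeks (3). Set 2 held cells of P7 mice, either wild type (HSCs 3, HPCs 3) or with the genotype labelled Infnar_KO (HSCs 2, HPCs 3), which the series text calls Ifnar-ko. The labels name neither the receptor chain that was knocked out nor the allele, and no Cre or transgene is mentioned. Each of the 12 groups had 1 pooled peak list, so no value here has a spread between animals, no p-value was computed, and intervals cover counting error only. The lists of the sets were made differently, so genotypes were compared within set 2 and ages within set 1. Lists were assigned by the group name they carry, although the descriptions of 12 of the 24 set 1 libraries, all those of P14 and P21 among them, point to another group's list.

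Type I interferons signal through a receptor of 2 chains, IFNAR1 and IFNAR2, whose kinases phosphorylate STAT proteins, and these bind interferon-stimulated response elements beside genes such as Mx1. Il10rb encodes a chain shared by the receptors for interleukin 10 and for type III interferons, and Ifngr2 encodes a chain of the interferon gamma receptor. Acute type I interferon is known to drive quiescent HSCs into the cell cycle. The same interval carries Runx1 and Erg, which encode transcription factors needed for blood stem cells, and Dscam, which encodes an adhesion protein of neurons.

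Sequences at 4 gene starts are shown because the regions over the first 3 were called in all 12 lists, whereas the region over the start of Dscam was called in both wild-type lists and in neither knockout list. They come from RefSeq (GRCm38.p6), run from 250 bases before to 50 bases after the annotated start, and are written 5′ to 3′ on the strand of the gene. Capitals mark matches, on both strands, to GAAANNGAA (a core of the interferon-stimulated response element), TTCNNNGAA (the gamma-activated site, bound by STAT dimers), TGTGGT (bound by RUNX factors), GGGCGG (the GC box), AGATAA (bound by GATA factors), CGGAAG (bound by ETS factors) and TGANTCA (bound by AP-1).
Ifnar2, chr16:91372533-91372832, plus strand: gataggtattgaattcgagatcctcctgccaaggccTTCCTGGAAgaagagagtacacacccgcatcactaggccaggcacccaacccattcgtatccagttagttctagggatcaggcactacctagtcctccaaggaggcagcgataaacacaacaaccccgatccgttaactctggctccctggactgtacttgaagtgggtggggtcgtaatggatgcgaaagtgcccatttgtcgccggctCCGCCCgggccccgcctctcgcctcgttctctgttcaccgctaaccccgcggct
Ifnar1, chr16:91484965-91485264, plus strand: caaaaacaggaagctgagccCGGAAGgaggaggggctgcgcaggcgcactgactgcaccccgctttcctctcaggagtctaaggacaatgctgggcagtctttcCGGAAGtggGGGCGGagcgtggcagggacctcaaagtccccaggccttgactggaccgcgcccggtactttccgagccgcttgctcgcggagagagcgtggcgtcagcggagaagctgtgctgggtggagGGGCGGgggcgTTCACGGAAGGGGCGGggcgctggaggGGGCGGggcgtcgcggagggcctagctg
Ifngr2, chr16:91546809-91547108, plus strand: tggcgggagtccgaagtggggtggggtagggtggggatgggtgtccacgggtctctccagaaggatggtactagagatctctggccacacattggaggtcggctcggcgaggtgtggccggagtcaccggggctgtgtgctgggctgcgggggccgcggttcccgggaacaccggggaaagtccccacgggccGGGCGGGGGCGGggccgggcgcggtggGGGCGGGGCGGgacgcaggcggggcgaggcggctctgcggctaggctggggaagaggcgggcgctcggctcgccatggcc
Dscam, chr16:97170686-97170985, minus strand: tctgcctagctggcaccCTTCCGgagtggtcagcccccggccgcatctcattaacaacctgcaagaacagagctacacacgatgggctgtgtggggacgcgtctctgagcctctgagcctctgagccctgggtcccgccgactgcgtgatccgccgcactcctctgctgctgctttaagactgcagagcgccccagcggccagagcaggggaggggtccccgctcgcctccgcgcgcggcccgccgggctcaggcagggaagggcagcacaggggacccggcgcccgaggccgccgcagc

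All 4 windows were rich in CpG, with 18 CpG dinucleotides at Ifnar2, 26 at Ifnar1, 31 at Ifngr2 and 26 at Dscam, against a median of 7.0 over 32851 windows of the same kind. Ifnar1 held 1 gamma-activated site, 3 ETS matches and 4 GC boxes, and its gamma-activated site overlapped an ETS match. Ifnar2 held 1 gamma-activated site and 1 GC box, Ifngr2 held 4 GC boxes, of which neighbouring ones touch or overlap, and Dscam held 1 ETS match. None of the 4 held the response element core, RUNX, GATA or AP-1 letters. Over all windows, 8.56% held the response element core, 8.3% the gamma-activated site, 16.9% the ETS letters, 35.7% the GC box, 16.8% RUNX, 11.2% GATA and 7.81% AP-1.

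The lists held between 317 (knockout HSCs) and 668 (P14 HPCs) regions of the interval. Strong regions were those whose -log10 p, as the authors' peak caller gave it, reached the median of its own list, and between 47.3% and 50.6% of the regions of the interval were strong. Members had a median width of 588 bp (155 to 2399 bp). Of the members, 193 (18.0%) were called in all 12 lists, against 19.7% over the genome, and 252 (23.6%) in 1 list alone, against 21.9%. A gene start lay within 1 kb of 34.2% of the members called in all 12 lists and of 4.37% of those called in 1 list. At the starts of blood genes, Ptprc, Kit, Cd34, Runx1, Mecom, Hlf and Flt3 had a region in all 12 lists. The HSC marker Slamf1 was called in all 8 lists of set 1 and in none of set 2. Procr, another HSC marker, was called in 9 lists, among them knockout HSCs (-log10 p 21) and both HPC lists of set 2 (47.7 and 54.3), and was missing from wild-type HSCs and from fetal and adult HPCs. Cd48, a marker of HPCs, was called in 8 lists, which were all 7 HPC lists and fetal HSCs (18.8). Among markers of other cells that the table of starts holds, Alb was called in no list, Cd3e in 2, Cd3g in 1 and Cd79a in 2, while Kdr of the endothelium was called in all 12. Apoa1, a hepatocyte gene, was called in P14 HSCs at 349.9, where the limit for a strong region was 79.6, and in fetal HSCs at 1.4. The part of these markers in the results was not tested.

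The starts of the 4 receptor genes were accessible at every age and in both genotypes. The region over the Ifnar1 start (chr16:91484710-91485745) had a -log10 p of 424.0 in fetal, 1474 in P14 and 927.5 in adult HSCs of set 1. In HPCs of set 1 it had 423.5 in the fetus, 182.5 at P7, 635.2 at P14, 456.5 at P21 and 498.5 in the adult. In set 2 it had 652.5 in wild-type HSCs, 378.0 in knockout HSCs, 797.4 in wild-type HPCs and 794.4 in knockout HPCs. It lay above 94.9% to 99.3% of the regions of each list. The region stayed called in both knockout lists, and there it lay above 98.1% (HSCs) and 98.4% (HPCs) of the regions, beside 98.6% and 98.2% in wild type.

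The region over the Ifnar2 start (chr16:91372339-91373716) had a -log10 p of 119.4 in wild-type HSCs, 92.0 in knockout HSCs, 254.2 in wild-type HPCs and 199.9 in knockout HPCs. Over the 8 lists of set 1 it ran from 82.7 (P7 HPCs) to 346.8 (P14 HSCs). For Il10rb, which has no printed window, the first base of the annotated gene (91406157) was taken as its start. The region of 1620 bp over it (chr16:91405631-91407250) had 139.1 in wild-type HSCs, 64.6 in knockout HSCs, 257.4 in wild-type HPCs and 170.1 in knockout HPCs. The start of Ifngr2 lay in the widest member, of 2399 bp (chr16:91545452-91547850), with 87.5 and 58.3 in wild-type and knockout HSCs and 285.8 and 198.7 in wild-type and knockout HPCs. In both HPC lists of set 2 this value belongs to a region that also reached a site 1108 bp before the gene. Neither HSC list of set 2 held that site. All 4 start regions were strong in all 12 lists. The -log10 p grows with the depth of a list, so its size is given as a description and was not compared between lists: the knockout lists were the shorter ones, with 42463 regions over the genome against 45620 in HSCs and 58575 against 66052 in HPCs, and their limits for a strong region were lower (51.0 against 66.8, and 78.4 against 87.0).

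**Figure D1:**
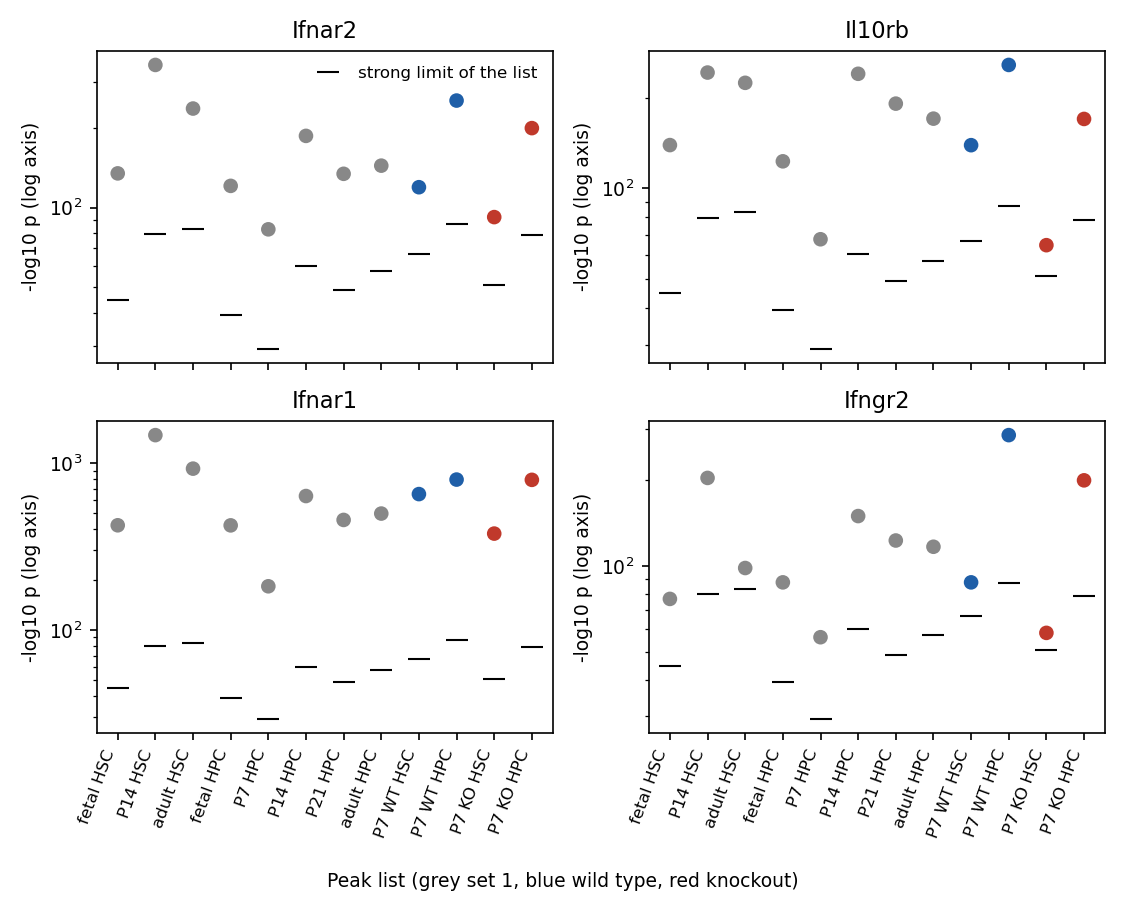
Each panel gives, on a log axis, the -log10 p of the region over the start of 1 receptor gene in each of the 12 peak lists (grey set 1, blue wild type, red knockout), with the limit for a strong region of that list as a dash. Every point lies above its dash, and Ifnar1 reaches 1474 in P14 HSCs.

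Next to the starts, 4 of the 13 set 2 regions of the receptor genes were called in both HPC lists and in neither HSC list of set 2. This pattern was common, with 96 of 588 regions of the interval (16.3%) and 15% of the genome, while the reverse held for 11 (1.87%, genome 1.49%). A region within Il10rb (chr16:91412646-91413650) had 262.3 in wild-type and 123.1 in knockout HPCs and was not called in either HSC list of set 2 or in fetal HSCs, while P14 and adult HSCs had 32.8 and 26.3. A region within Ifngr2 (chr16:91553482-91554429) had 181.1 and 79.1 in wild-type and knockout HPCs, a region 4073 bp before Ifnar1 (chr16:91480521-91480959) had 135.9 and 41.6, and a region 7560 bp beyond Il10rb (chr16:91433394-91433942) had 113.1 and 55.3.

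Around Ifnar1 itself, 1 region appeared in both knockout lists and was missing from both wild-type lists. It lay 8.69 kb before the gene (chr16:91475557-91476340), with a -log10 p of 42.8 in knockout HSCs and 71.2 in knockout HPCs. In set 1 it was called in fetal HPCs (15.6), P14 HPCs (10.8) and P21 HPCs (64.6), and in none of the HSC lists. On the other side of Ifnar2, 39.6 kb before that gene, a region of 273 bp (chr16:91332956-91333228) was called in wild-type HSCs (13.6) and wild-type HPCs (40.9), in neither knockout list and in no list of set 1. Neither of these regions was strong in any list of set 2.

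Regions that were called in both lists of 1 genotype and in neither of the other made up a larger share of the interval than of the genome. Of the 588 regions of set 2 in the interval, 22 (3.74%, exact Clopper-Pearson 95% interval 2.36 to 5.61%) were called in both wild-type and neither knockout list, where the whole genome had 1208 of 75208 (1.61%). The other chromosomes ran from 1.19% to 2.04%, and the rest of chromosome 16 had 1.55%. In the reverse direction, 9 regions (1.53%, 0.702 to 2.89%) were called in both knockout and neither wild-type list, where the genome had 474 (0.63%) and other chromosomes ran from 0.41% to 1.04%. Along the genome, 138 other stretches as long as the interval, a comparison added after these values were seen, had a median of 1.61% and at most 3.44% in wild type only, on chromosome 14. In knockout only they had a median of 0.591% and at most 2.55%, and 8 of them reached the value of the interval. The 4 lists differ in length. With equally many regions taken from each, 9 of 440 regions (2.05%, genome 0.775%) were in wild type only and 8 (1.82%, genome 1.01%) in knockout only, so both shares stayed above the genome's but the counts of the interval were nearly equal, and over the genome the order of the directions was reversed.

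**Figure D2:**
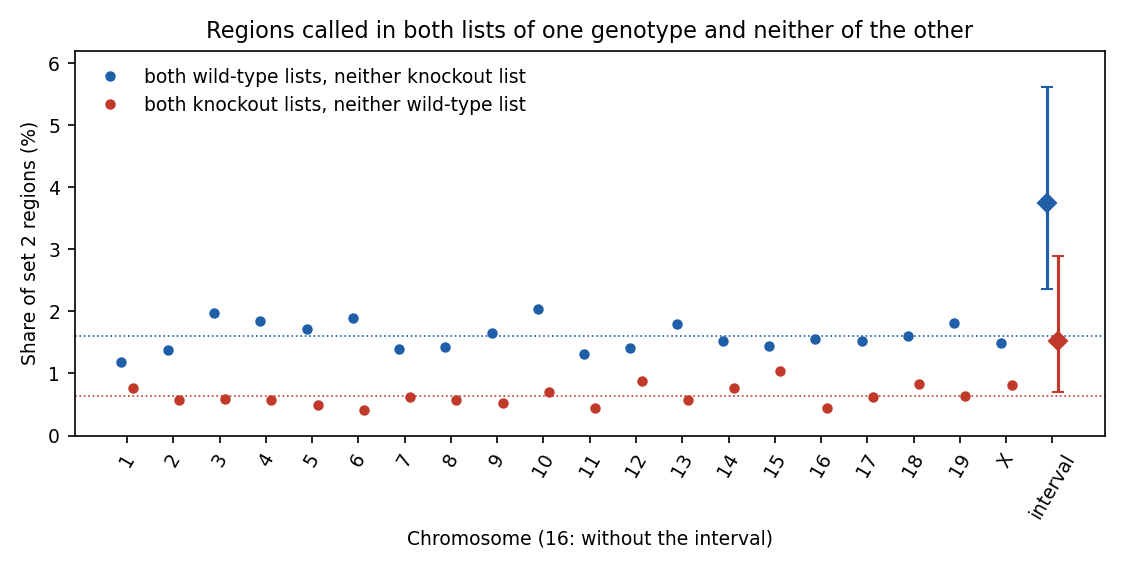
Share of the set 2 regions of each chromosome that were called in both wild-type and neither knockout list (blue) or the reverse (red), with the interval as diamonds with exact 95% intervals and dotted lines at the shares of the whole genome. The interval lies at 3.74% and 1.53%, above the 20 other points of its colour.

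The strongest of these differences lay upstream of Hunk, which encodes a kinase related to SNF1. The region (chr16:90349621-90350213), 35.1 kb before Hunk and 1.14 Mb proximal of the Ifnar1 start, had a -log10 p of 247.7 in wild-type HSCs and 321.5 in wild-type HPCs. Neither knockout list had a region within 26210 bp of it. All 8 lists of set 1 had it, with 262.9, 413.9 and 509.7 in fetal, P14 and adult HSCs, and 206.3, 115.3, 343.9, 81.7 and 254.6 in HPCs of the fetus, P7, P14, P21 and adult. The start region of Hunk itself was called in all 12 lists, with 25 and 18.3 in wild-type and knockout HSCs and 44.9 and 28.9 in wild-type and knockout HPCs.

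Vps26c, which encodes a subunit of the retriever complex that recycles membrane proteins from endosomes, had differences in both directions within 30 kb. A region 12.1 kb downstream of it (chr16:94484850-94485585) had a -log10 p of 69.1 in wild-type HSCs and 237.1 in wild-type HPCs, was called in all 8 lists of set 1 (21.4 to 156.2) and had no knockout region within 18635 bp. A region at the end of the gene (chr16:94497822-94498425) had 45.4 and 51.3 in wild type and was called in 7 lists of set 1. Inside the gene, a region of 612 bp (chr16:94509994-94510605) had 54.9 in knockout HSCs and 221.1 in knockout HPCs, was in neither wild-type list, and among the lists of set 1 was called only in P21 HPCs (30.1). The start of Vps26c was called in all 12 lists, at 370.1 and 181.4 in wild-type and knockout HSCs and at 563.9 and 449.4 in wild-type and knockout HPCs.

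At the distal end of the interval, several regions along Dscam were called in wild type only. The region over the start of Dscam (chr16:97170506-97171123), which covers the whole sequence printed for it, had a -log10 p of 13.5 in wild-type HSCs and 69.6 in wild-type HPCs and was called in all 8 lists of set 1, from 13 (P7 HPCs) to 53.9 (P14 HPCs). A region 38.9 kb upstream (chr16:97209977-97210421) had 25.5 and 106.8, was strong in HPCs and was called in 6 lists of set 1. Within the gene, the region chr16:96610756-96611125 had 17.3 and 53.7, and chr16:96896790-96897050 had 17.3 and 36.4. All 4 were in neither knockout list, and no region of Dscam was called in both knockout lists alone. Within 1 cell type Dscam also had knockout regions that wild type lacked: HSCs had 4 of 7 regions in wild type only and 3 of 6 in knockout only, and HPCs had 5 of 10 and 2 of 7. Over the genome, weak regions included, these shares were 19.6% and 12.9% in HSCs and 19.8% and 9.67% in HPCs. Fam3b, Itgb2l and Igsf5, which lie on either side of Dscam, each had 1 region called in wild type only, with 23.4 and 39.7, 20.1 and 80.5, and 28.1 and 63.8 in HSCs and HPCs.

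Closer to the receptor cluster, Itsn1, which encodes a scaffold protein of endocytosis, had 30 members within its body and 10 kb on each side, of which 8 were called in all 12 lists. Within 1 cell type, HSCs had 4 of 14 Itsn1 regions in wild type only and 2 of 12 in knockout only, and HPCs had 6 of 20 and 3 of 17. The genome's shares are those given for Dscam. Some of the 30 were in no list of set 2, and 1 (chr16:91763981-91764410) was in both wild-type and neither knockout list. It had 56.1 in HSCs and 70.2 in HPCs and was called in 6 lists of set 1. Kcne2 (24.5 and 35.3) and Rcan1 (20.1 and 42.0) had 1 such region each. Setd4 had a region within the gene (33.4 and 44.7) that no list of set 1 held. The other regions in wild type only lay near Scaf4, Mis18a, Cfap298, Synj1, Dop1b and Bach1 and at chr16:85677074-85677353. The last had no gene used for naming within 50 kb. There, all 8 lists of set 1 had between 70.7 and 453.8 and wild type had 28.8 and 50.1.

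In knockout only, Erg had a region within the gene (22.2 in HSCs, 49.4 in HPCs), as did Bach1 (19.9 and 22), a repressor of haem-regulated genes, Kcnj6 (15.3 and 31.6), a potassium channel, and Jam2 (23.0 and 34.4), an adhesion molecule. A region 32.3 kb from Cldn14 (31.7 and 23.6) was in no list of set 1. The remaining 2 had no gene used for naming within 50 kb. They lay at chr16:87246138-87246832 (25.4 and 33.8) and chr16:91166785-91167219 (31.4 and 56.5), and were called in all 8 lists of set 1. For 2 of the regions in wild type only the boundary matters: the one at Cfap298 lay 331 bp and the one at Synj1 94 bp from a region of a knockout list.

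**Figure D3:**
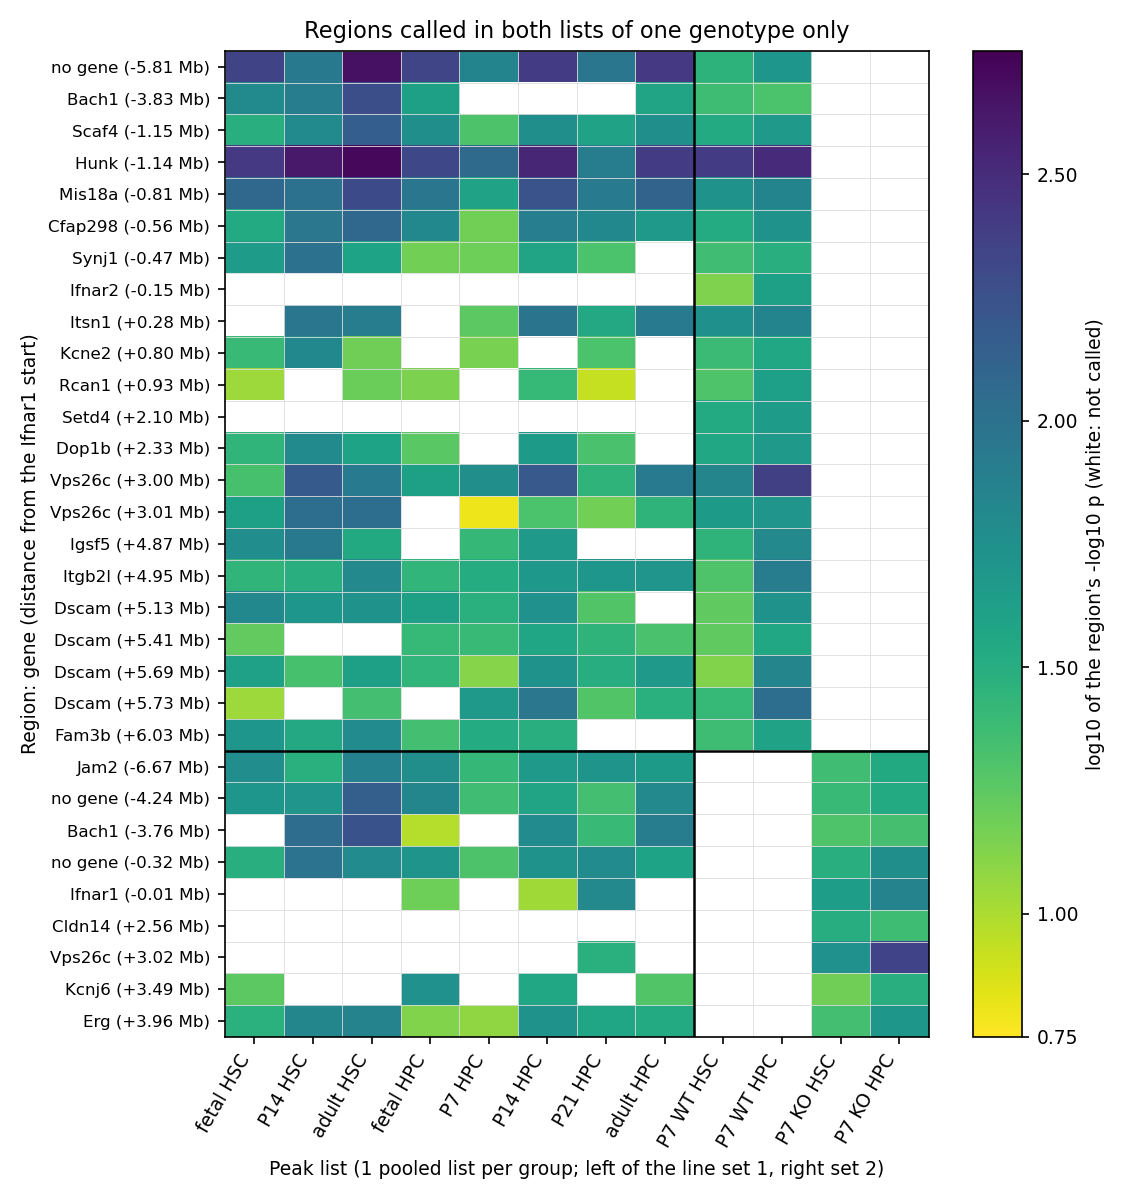
Each row is 1 of the 31 regions called in both lists of 1 genotype only (22 in wild type above the line, 9 in knockout below), named by gene and by distance from the Ifnar1 start, and each column is a peak list; colour gives the log10 of the -log10 p and white means not called. Most rows are filled in the lists of set 1, left of the line, and the row at Hunk is dark in all 8 of them.

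Most of these regions were not peculiar to set 2. Of the 22 in wild type only, 8 were called in all 8 lists of set 1 (36.4%, against 36.2% of such regions over the genome), the median was 6.5 lists (7.0 over the genome), and 2 were in none (9.09%, against 1.08%). Of the 9 in knockout only, 4 were in all 8 lists, the median was 6.0 (7.0 over the genome) and 1 was in none (11.1%, against 1.27%). A strong region was among them in 3 of 22 cases (13.6%, against 3.06% over the genome) and in 1 of 9 (11.1%, against 3.59%). The 22 were narrower than the regions called in all 4 lists, with a median of 450 bp against 786 bp, as over the genome (436 and 748 bp). A gene start lay within 1 kb of 3 of them (13.6%, against 10.1% of such regions over the genome).

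Along the interval the share varied between windows of 2 Mb. The window from 96 to 98 Mb, which contains Dscam, had 7 of 78 regions (8.97%) in wild type only. It was the highest of 855 windows of the genome with at least 30 regions. Those outside the interval had a median of 1.45% and at most 8.7%. The window from 90 to 92 Mb, which holds Hunk and the 4 receptor genes, had 7 of 129 (5.43%, rank 24 of the 855). That from 92 to 94 Mb had 4 of 132 (3.03%, rank 140) and that from 94 to 96 Mb 2 of 144 (1.39%, rank 439). In knockout only, the window from 94 to 96 Mb had 4 regions (2.78%, rank 36), and that from 86 to 88 Mb had 2 of 41 (4.88%, rank 5). That from 84 to 86 Mb had 1 of 37 (2.7%, rank 44) and that from 90 to 92 Mb 2 of 129 (1.55%, rank 155). In this direction the windows outside the interval had a median of 0.0% and at most 9.68%. From 90 to 98 Mb, 20 of 483 regions (4.14%, 2.55 to 6.32%) were in wild type only, and proximal of 90 Mb, 2 of 105 (1.9%, 0.232 to 6.71%); these intervals overlap.

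**Figure D4:**
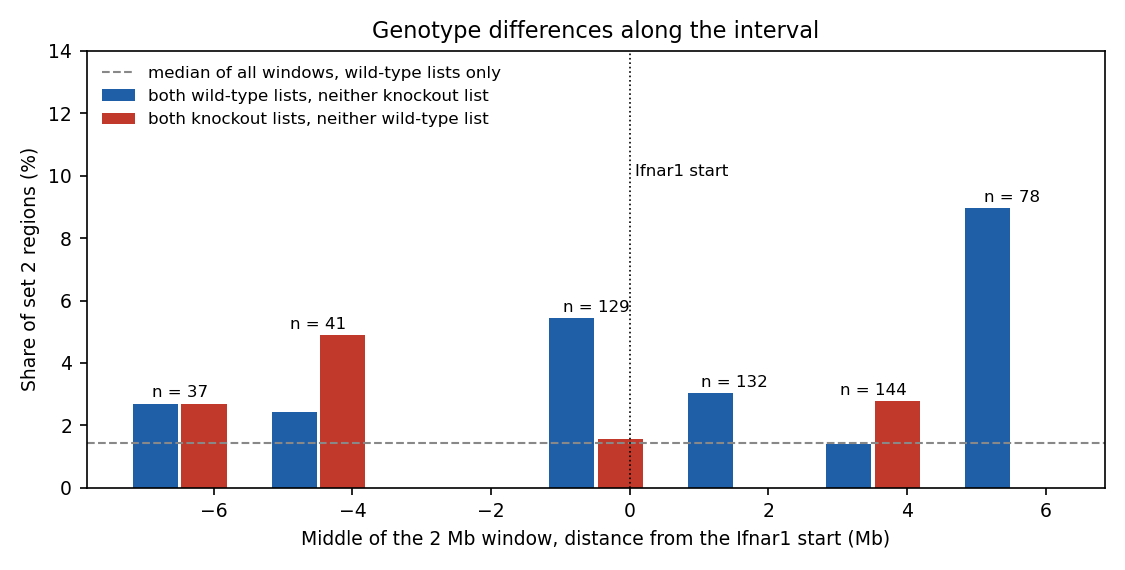
Bars give the share of set 2 regions in each window of 2 Mb that were called in both wild-type and neither knockout list (blue) or the reverse (red), by distance of the window's middle from the Ifnar1 start, with the number of regions in the window. The dashed line, labelled as all windows, is the median for wild type only of the windows outside the interval. The highest bar is 8.97%, at 5.51 Mb, and windows with fewer than 30 regions are not drawn.

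Within each cell type the strong regions in 1 list alone were few. Of 174 strong regions of wild-type HSCs, 4 (2.3%, 0.63 to 5.78%) were missing from the knockout list, where the genome had 1.29% and other chromosomes ran from 0.801% to 2.22%. They lay near Hunk and Vps26c, as above, in Kcnj6 (chr16:94789901-94790409, -log10 p 77.5) and over the proximal edge of the annotated Mx2 gene (chr16:97535494-97536405, 105.8). Knockout HPCs had the Kcnj6 region, at 106.6. The Mx2 region lay 47 bp from a region of knockout HSCs, and the merged member was called in all 12 lists. Of 152 strong regions of knockout HSCs, 2 (1.32%, 0.16 to 4.67%) were missing from wild type, where the genome had 0.462% and other chromosomes ran from 0.165% to 1.77%, the X chromosome being above the interval. They were the one within Vps26c and one in Kcnj6 (chr16:94817022-94817742, 74.9) that lay 270 bp from a wild-type region.

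In HPCs, 7 of 236 strong wild-type regions (2.97%, 1.2 to 6.02%) were missing from the knockout list, against 0.845% over the genome, and the other chromosomes ran from 0.425% to 1.2%. These were the regions near Hunk (321.5), beyond Vps26c (237.1) and upstream of Dscam (106.8), and a region within Dscam (chr16:97141896-97142533, 130.1). The others lay within Rcan1 (chr16:92457621-92458011, 104.4), 43190 bp from Ets2 (chr16:95658703-95659217, 99.1) and at chr16:97240121-97240725 (111.2). The last had no gene used for naming within 50 kb. Knockout HSCs had the one within Dscam (32.7), the one within Rcan1 (70.9) and the one near Ets2 (19.9), so the other knockout list held them. In the other direction, 2 of 213 strong knockout regions (0.939%, 0.114 to 3.35%) were missing from wild type, against 0.171% over the genome and at most 0.322% on another chromosome. These were the region within Vps26c (221.1) and one beside Cfap298 (chr16:90924627-90925172, 90.4), which lay 331 bp from a wild-type region. Wild-type HSCs had the one beside Cfap298, at 24.7. Of the 4 counting intervals, that of the wild-type HPC regions lay above the genome's share and the other 3 included it. When weak regions were counted too, the shares were smaller multiples of the genome's (1.12 to 1.42 times, against 1.78 to 5.5 for strong regions). In HSCs, 81 of 352 wild-type regions (23.0%, 18.7 to 27.8%, genome 19.6%) and 48 of 317 knockout regions (15.1%, 11.4 to 19.6%, genome 12.9%) were in 1 list alone. In HPCs, these were 111 of 499 (22.2%, 18.7 to 26.2%, genome 19.8%) and 62 of 450 (13.8%, 10.7 to 17.3%, genome 9.67%). Here the counting interval of the knockout HPC regions lay above the genome's share, and the other 3 included it. That share also exceeded the 12.9% of the X chromosome, the highest of the other chromosomes. The title of 1 knockout HPC library ends in a code that the wild-type libraries carry, and it was placed by its genotype label, so the values of the knockout HPC list hold with that label.

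**Figure D5:**
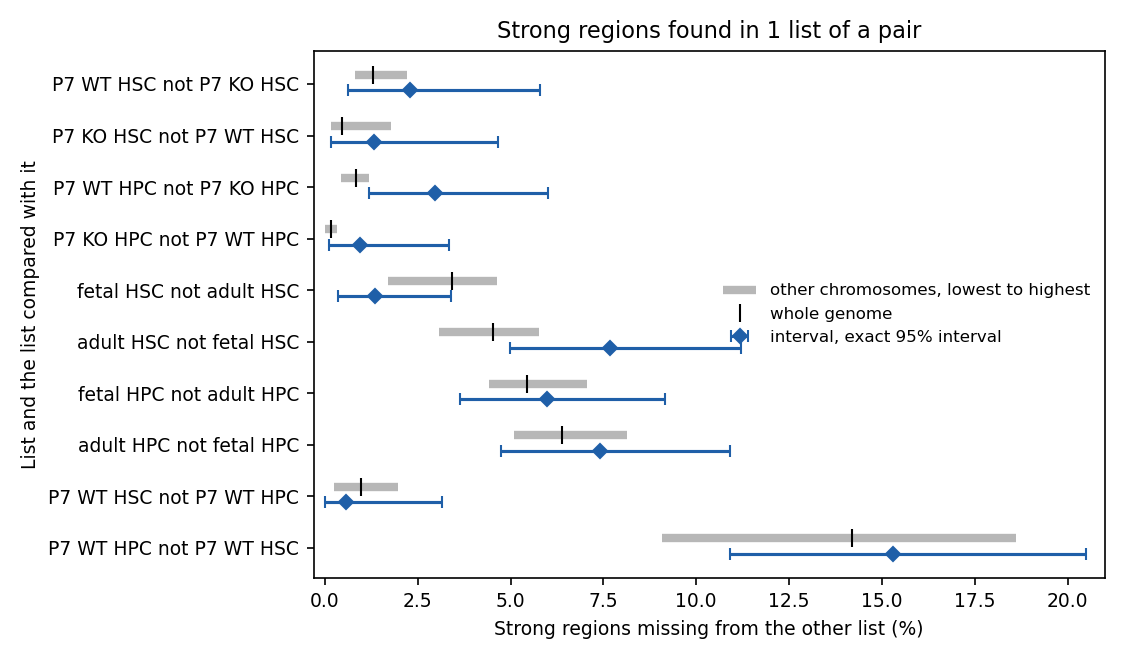
Blue diamonds give the share of strong regions of the interval that the other list of the pair lacked, with exact 95% intervals; grey bars span the other chromosomes and black ticks mark the whole genome. The 4 genotype shares at the top lie at 2.3%, 1.32%, 2.97% and 0.939%, right of their black ticks, and the shares between HSCs and HPCs at the bottom lie beside theirs.

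The gene groups of the interval each held few regions of either kind. The 4 cytokine receptor genes held 13 set 2 regions within their bodies and 10 kb on each side, with none in wild type only and 1 in knockout only, the region before Ifnar1. Mx1 and Mx2, interferon-induced genes of the antiviral Mx GTPase family that the annotation lists as transcribed pseudogenes, held 5 regions and none of either kind. The region over the distal edge of the annotated Mx1 gene (chr16:97462249-97463694) was called in all 12 lists. It had 154.5 and 63.2 in wild-type and knockout HSCs and 206.6 and 90.5 in wild-type and knockout HPCs. The blood transcription factors Runx1, Erg, Ets2, Bach1 and Gabpa held 53 regions, with none in wild type only and 2 in knockout only. The 14 neighbours of the receptor cluster held 52 regions and 3 in wild type only, at Itsn1, Kcne2 and Rcan1, while 16 genes of chromatin, cell cycle and housekeeping held 70 regions and 1 in wild type only. The 12 genes of other tissues held 47 regions, of which 3 were in wild type only, at Dscam, and 1 in knockout only, at Kcnj6. As shares, wild type only made up 5.77% at the neighbours, 6.38% at the genes of other tissues and 1.43% at the chromatin, cell cycle and housekeeping genes, beside 1.61% over the genome. Knockout only made up 7.69% at the receptor genes, 3.77% at the transcription factors and 2.13% at the genes of other tissues, beside 0.63%. Each of these shares rests on 1 to 3 regions, and differences between the groups were not tested.

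Runx1 had 27 members, of which 7 were called in all 12 lists and 7 in 1 list. The member with the highest -log10 p in wild-type HSCs (chr16:92801356-92802227) had 440.5 and 255.9 in wild-type and knockout HSCs and 625.5 and 545.0 in wild-type and knockout HPCs. Erg had 32 members, of which 5 were called in all 12 lists. The microRNA-155 gene, a regulator of blood cells, lay at the proximal side of the interval, and its hairpin (chr16:84714140-84714204) was inside a region called in all 12 lists (28.9 in knockout HSCs to 254.8 in adult HSCs). Its main product is shown, with the seed in capitals, since it is the transcript under that region.
mmu-miR-155-5p: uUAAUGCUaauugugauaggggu

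By age, 4.58% of the strong HSC regions and 6.68% of the strong HPC regions of the interval were in 1 list alone, both ages together, against 3.97% and 5.92% over the genome. In HSCs the adult and fetal directions stood on opposite sides of the genome. Of 312 strong adult HSC regions, 24 (7.69%, 4.99 to 11.2%) were missing from the fetal list, against 4.53% over the genome and 3.07% to 5.76% on other chromosomes, and of 299 strong fetal HSC regions 4 (1.34%, 0.366 to 3.39%) were missing from the adult list, against 3.42% and 1.69% to 4.64%. With weak regions included these shares were 22.1% (18.9 to 25.6%, genome 21%) and 20.1% (16.9 to 23.5%, genome 22.4%), and both counting intervals included the genome's. The strongest adult region (chr16:85415127-85416027, 36831 bp from Cyyr1) had a -log10 p of 405.8 in adult HSCs, and of the other lists adult HPCs alone had it, at 20.4. A region 13885 bp from Mir155hg (chr16:84698690-84699138) had 302.8 in adult HSCs and was called in no other HSC list but in every HPC list of set 1 (55.0 to 194.8) and in both HPC lists of set 2 (76.7 and 69.8). A region near Prdm15 (chr16:97897236-97898056, 255.4) was in adult HSCs alone. Regions within Bace2 (chr16:97418702-97419327) and Bach1 (chr16:87725881-87726606) had 230.4 and 176.4 in adult HSCs and 71.4 and 108.0 in P14 HSCs. The one within Bace2 lay 321 bp from a region of fetal HSCs. The 4 fetal regions had 67.0 near Krtap24-1, 53.7 within Tmprss2, 49.2 more than 50 kb from any gene used for naming and 44.9 within Rcan1. The limit for a strong region was 44.8 in fetal and 83.0 in adult HSCs, so their sizes were not compared. The fetal regions at Tmprss2 and Rcan1 were called in P14 HSCs as well (106.2 and 167.0).

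In HPCs, 19 of 318 strong fetal regions (5.97%, 3.64 to 9.17%, genome 5.45%) and 23 of 311 strong adult regions (7.4%, 4.75 to 10.9%, genome 6.39%) were in 1 list alone. With weak regions included, 198 of 660 fetal regions (30%, 26.5 to 33.7%) were missing from the adult list, above the 25.3% of the genome, and 145 of 616 adult regions (23.5%, 20.2 to 27.1%) from the fetal list, where the genome had 24.8%. The strongest fetal one lay within Tiam1 (chr16:90052889-90053579, 93.6), and the next lay near Pcp4 (76.5) and Cfap298 (71.3). After these came chr16:87049233-87050303 (71.1), with no gene used for naming within 50 kb, and a region near Krtap19-9b (66.9). The strongest adult one lay within Chaf1b (chr16:93890995-93891611, 135.9), a histone chaperone subunit. The next, at chr16:84603453-84604080 (113.8), had no gene used for naming within 50 kb. Then came regions 21158 bp from Sod1 (103.4), within Erg (102.2) and within Jam2 (98.5). When both cell types had to agree, 23 of 950 regions (2.42%, 1.54 to 3.61%) were fetal only and 24 (2.53%, 1.63 to 3.74%) adult only, where the genome had 3.62% and 3.61%. For 12 of the 24 libraries of set 1 the description points to the list of a different group. These are all 3 P14 HSC, all 2 P14 HPC and all 2 P21 HPC libraries, and 3 of 5 adult HSC, 1 of 3 P7 HPC and 1 of 3 fetal HPC libraries. So values by age, and all others from lists of set 1, hold with the names of the lists.

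At P7 in wild type, 36 of 236 strong HPC regions (15.3%, 10.9 to 20.5%) were missing from HSCs, against 14.2% over the genome, and 1 of 174 strong HSC regions (0.575%, 0.0145 to 3.16%) was missing from HPCs, against 0.969%. The HPC regions were led by one between genes (chr16:93152758-93153499, 295.6), one 47786 bp from Runx1 (chr16:92873860-92874414, 272.9) and the one within Il10rb. Next came one 29694 bp from Map3k7cl (247.5) and one between genes at chr16:97241537-97242126 (208.4). The HSC region lay at chr16:93197154-93197955 (97.3). The list of P7 wild-type HPCs of set 2 could also be set beside that of P7 HPCs of set 1, whose titles carry no genotype. This comparison was added after the data were seen. Of 289 strong set 1 regions, 30 (10.4%, 7.11 to 14.5%, genome 10.1%) were in 1 list alone, as were 6 of 236 strong set 2 regions (2.54%, 0.939 to 5.45%, genome 4.32%). With weak regions included the shares were 29.0% (genome 30.6%) and 20.2% (16.8 to 24.0%, genome 18.4%). The counting intervals of both strong shares included the genome's.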

How the data were processed

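ATAC-seq of 35 libraries had been summarised by the authors as 12 pooled narrowPeak lists, made with Bowtie2 and MACS2 on mm10 (GRCm38), per the submitters' processing notes; for versions, settings and read depth, none is given in the sources used here. Each deposited list gives per peak -log10 p and q values and a fold (ratio) over background; these are the authors' own and were used inside a list only, to rank, describe or filter.

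Peaks that touched or overlapped were merged (Python 3.11.15, pandas 2.3.3), and a region took its highest -log10 p. A region was in 1 list alone when it shared no base with the other list, and strong at or above its list's median (upper 50%). Exact Clopper-Pearson 95% intervals (scipy 1.17.1) cover the counting of regions only, since each group has 1 pooled list. As a check of the code, known regions were removed from copies of the P7 wild-type lists and were all found as missing. This does not test whether a region missing from a list was closed in the cells. Regions were named by the gene that holds them or the nearest gene end within 50 kb (RefSeq, GRCm38.p6), predicted genes left out. The text names every region called in both lists of 1 genotype only, the strong regions in 1 list alone (up to 10 per direction for genotype and 5 for age and cell type), and fixed gene lists, all of whose symbols matched. Members, lists and rules were chosen with earlier results of these data known. Libraries were grouped by cell type, age and genotype labels.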

Additional observations from a re-analysis of the deposited data

Results flagged for a closer look

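Calls went opposite ways in HSCs and HPCs for 16 regions of the interval, so that every list of 1 cell type moved against the other; the difference was not tested, since each group has 1 list. The values are -log10 p in HSCs and then in HPCs. Called in wild-type HSCs and knockout HPCs only were 8 regions (1.36%, against 0.905% over the genome): 2 between genes at chr16:84527432-84527724 (21.3 and 18.6) and chr16:86821219-86822146 (38.6 and 28.4), and others at Map3k7cl (57.0 and 56.9), Tmem50b (22.3 and 48.5), Rcan1 (25 and 55.0), Mx1 (18.8 and 19.6), Tmprss2 (22.3 and 25.4) and Prdm15 (27.7 and 27.4). Called in knockout HSCs and wild-type HPCs only were another 8 (1.36%, against 1.04%): at Jam2 (24.8 and 50.9), Tiam1 (17.0 and 29.6), Slc5a3 (14.5 and 29.2), Runx1 (18.7 and 40.9), Erg (21.1 and 29.0), Ets2 (19.9 and 99.1) and 2 within Dscam (25.9 and 23.0, and 32.7 and 130.1). The ones at Ets2 and at the distal Dscam site were strong in HPCs, and the one in Tmem50b was in no list of set 1.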

How the results depend on the processing

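No paired analysis was possible because each group has 1 pooled list, and no library could be left out for the same reason. Shares below are of strong regions of the interval found in 1 list alone, both lists of a pair together. The genotype shares were 1.84% in HSCs and 2.0% in HPCs, and stayed above the genome's under all 12 alternatives (1.18 to 56.3 times), of which the highest rests on 3 HPC regions of the upper 25% (2 of 126 and 1 of 111). With all regions they were 19.3% and 18.2%, and with the upper 25% the HSC share was 0.671% (1 of 78 wild-type and 0 of 71 knockout regions). Fetal against adult HSCs (4.58%) gave 1.33% with the upper 25% and 21.1% with all regions, and HPCs (6.68%) gave 0.322% and 26.9%. HSCs against HPCs (9.02%, genome 8.8%) gave 2.94% (genome 3.43%) and 27.6% (genome 26.4%), and 5.52% with equally many regions (genome 5.66%). These age and cell type shares thus lay above the genome's in some settings and below it in others. The share called in both wild-type lists only, 3.74%, was 1.12% (3 of 268) among regions strong in at least 1 list and 2.05% (9 of 440) with equally many regions in all 4 lists; the genome then had 0.102% and 0.775%. The share called in both knockout lists only, 1.53%, was 0.373% (1 of 268) among strong regions, against 0.0469%, and 1.82% (8 of 440) with equally many, against 1.01%. Fewer or more regions enter these settings by construction. Of the 41 alternatives run, 28 moved their value by less than its counting interval. Without the regions near Hunk and Vps26c, chosen after seeing the data, 3.26% and 1.37% remained above the genome's 1.6% and 0.629%.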
